A study of Mus musculus with 6 samples.

Results

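The MHC class II presentation genes are the genes that build, chaperone, load and switch on the MHC class II molecule. The 10 genes described here are H2-Aa, H2-Ab1, H2-Eb1, H2-DMa, H2-DMb1, H2-DMb2, H2-Oa, H2-Ob, Cd74 and Ciita. They were taken by name from the 54532 genes of the deposited expression table, before any filter on level. All 10 had enough fragments to be tested, among 15520 genes tested in all. The data are bulk RNA sequencing of peri-infarcted and infarcted heart tissue, collected 7 days after ligation of the left anterior descending coronary artery to induce myocardial infarction (MI). The groups were 3 WT mice and 3 Crlf2-/- mice (genotype label TSLPR KO), all labelled C57BL/6 (C57BL/6J in the study's methods) and all infarcted, with 1 library per mouse and no sham group. Crlf2 encodes the receptor chain that binds thymic stromal lymphopoietin (TSLP), a cytokine to which dendritic cells and T cells respond. The knockout is constitutive, so it is not limited to one cell type, and the study's methods give different suppliers for the WT and the Crlf2-/- mice, so supplier and genotype cannot be told apart.

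MHC class II molecules present peptides from engulfed proteins to CD4+ T cells. An alpha and a beta chain are assembled in the endoplasmic reticulum around the invariant chain (Cd74), which fills the groove and steers the complex to the lysosome. There the DM heterodimer exchanges the last invariant chain fragment for peptide, and the O heterodimer restrains DM. CIITA, the class II transactivator, binds no DNA itself and docks on factors that sit on the X and Y boxes of class II promoters. Dendritic cells, B cells and activated macrophages are the usual sources of these transcripts in an injured heart.

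The X and Y boxes are shown because CIITA acts through them at class II promoters. They were not found together in every gene searched. RefSeq promoter windows (GRCm38.p6, 250 bases before to 50 bases after each start) were matched for 7 of the 10 genes. H2-Ab1 and Ciita had no window, and Cd74 was left out of the search. The letters searched on both strands were GNAAC, the core of an X box, followed after 15 to 40 bases by ATTGG, the Y box. The pair was found in 5 of the 7 genes, namely H2-Aa, H2-Eb1, H2-DMb1, H2-Oa and H2-Ob, and in 4.23% of all 32851 windows. ATTGG alone was found in 7 of 7 genes, though not in both windows of H2-DMa, and in 37.4% of all windows. A gene was counted if any of its windows held the letters. The 4 stretches below hold both boxes in capitals, and the last, of H2-DMb2, holds ATTGG alone.
H2-Aa, chr17:34287857-34287919, minus strand: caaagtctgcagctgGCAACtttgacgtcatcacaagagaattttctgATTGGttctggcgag
H2-Eb1, chr17:34305761-34305822, plus strand: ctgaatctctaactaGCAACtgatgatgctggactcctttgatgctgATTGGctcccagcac
H2-Oa, chr17:34092288-34092350, plus strand: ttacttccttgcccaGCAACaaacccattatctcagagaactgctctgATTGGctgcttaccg
H2-Ob, chr17:34238803-34238862, plus strand: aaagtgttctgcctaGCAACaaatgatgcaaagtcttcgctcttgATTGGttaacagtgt
H2-DMb2, chr17:34145104-34145173, plus strand: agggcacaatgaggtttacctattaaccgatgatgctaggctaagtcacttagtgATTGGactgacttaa
In these stretches the boxes lay 25 to 28 bases apart, and ATTGG began 48 bases before the start of H2-Aa, 59 before that of H2-Eb1, 43 before that of H2-Oa, 57 before that of H2-Ob and 90 before that of H2-DMb2. In H2-DMb1 the pair read GTAAC and ATTGG with 28 bases between them, inside an annotated exon. Both windows of H2-DMa lay upstream of the gene as the table lists it, and neither held the pair. The stretch of H2-DMb2 lay inside that gene as listed, which begins at 34143307, so its distance of 90 bases refers to the RefSeq start. A match describes letters and does not show that a factor was bound in these hearts.

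Depth was alike, with 18508646 to 18973594 fragments on the table's genes per WT library and 18578175 to 19682428 per Crlf2-/- library. Crlf2 itself was at 26.6, 25.1 and 21.6 FPKM in WT and at 13.2, 18.7 and 19.8 FPKM in Crlf2-/- libraries (fragments scaled to gene length and library size). The groups did not overlap, with a log2 fold change of -0.52 (adjusted p = 0.521 from limma). A value over the whole gene does not show which exons were read, so it does not check the deletion. The heart label was met by abundant cardiomyocyte and fibroblast transcripts, with marker sums given below. Changes below are log2 fold changes of Crlf2-/- against WT on log2(FPKM + 0.1), from limma fitted on all tested genes.

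None of the 10 class II genes passed both thresholds (adjusted p at or under 0.05, and a log2 fold change of 0.5 or more in size) in limma, against 0.0129% of all genes tested (2 of 15520). None passed in limma's voom (0.0193% of all genes) or in a negative binomial Wald test (1.19%) either. At an unadjusted p under 0.05 in limma, 4 of the 10 were lower in Crlf2-/- mice, where 3.36% of all genes were. These 4 were H2-Aa, H2-Eb1, Cd74 and H2-DMa, and none was higher. The same count was 5 with voom (3.22% of all genes) and 5 with the negative binomial test (3.17%). All 10 estimates were negative (50.9% of all genes), from -0.55 for H2-Aa to -0.17 for H2-DMb2, although those of H2-Ob and Ciita turned positive without Crlf2-/- replicate 2. Their median was -0.32, and that of all genes tested was -0.004. The class II median was -0.52 without WT replicate 1 and -0.53 without Crlf2-/- replicate 3. An estimate of -0.5 or lower was found for 2 of the 10, against 3.29% of all genes. In 3 of the 10, the Crlf2-/- libraries all lay below the WT libraries (6.37% of all genes), in 7 the groups overlapped, and none lay above (5.37%). The 10 genes were read from the same 6 libraries, so a shared direction is not 10 independent observations. The count of 4 depended on single mice: it was 1 without WT replicate 2, 2 without Crlf2-/- replicate 1, 2 without Crlf2-/- replicate 2 and 6 without Crlf2-/- replicate 3. In bulk tissue, fewer class II positive cells and less class II RNA per cell cannot be told apart.

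**Figure D1:**
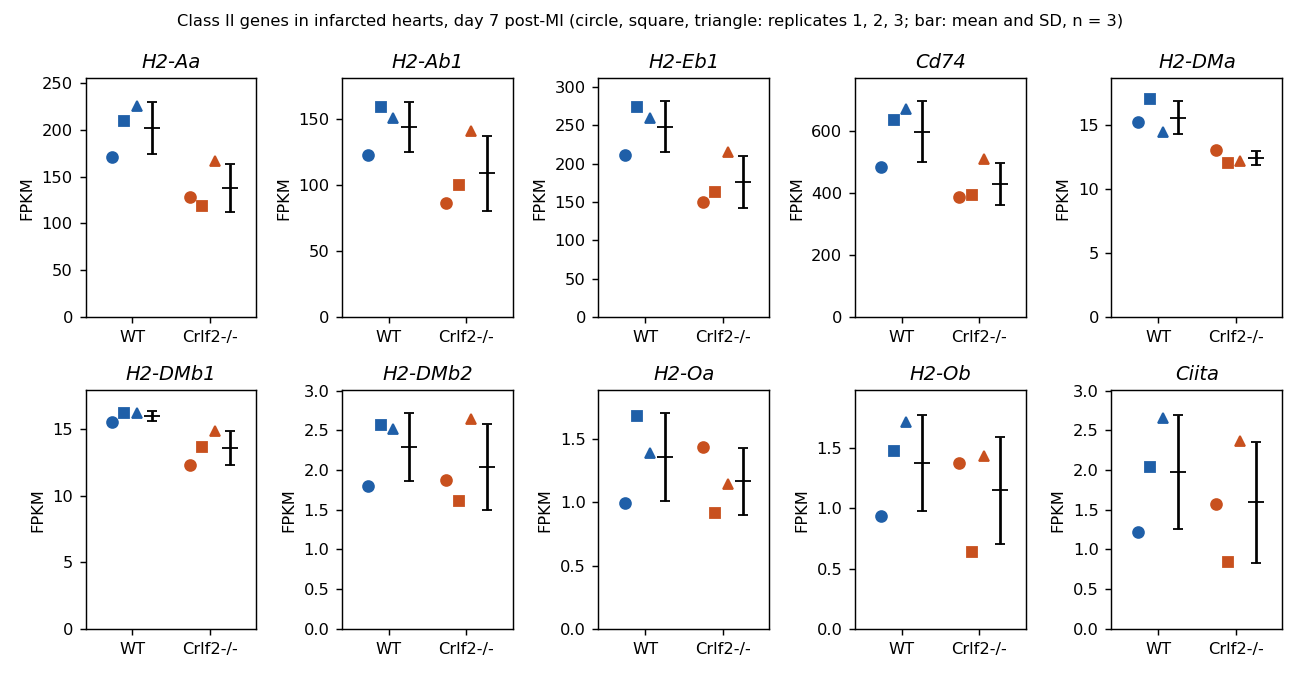
FPKM (linear axis from 0) of each class II gene in the 3 WT (blue) and 3 Crlf2-/- (orange) libraries, with the mean and SD of each group in black. In H2-Aa, H2-DMa and H2-DMb1 all orange points lie below all blue points, and in the other 7 genes the groups overlap.

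The chains of the presenting molecules were abundant. H2-Aa (ENSMUSG00000036594, chromosome 17, 34282744 to 34287827, minus strand, mm10) encodes the I-A alpha chain. It was at 171, 210 and 225 FPKM in WT and at 128, 119 and 167 FPKM in Crlf2-/- mice. All 3 Crlf2-/- libraries lay below the lowest WT library, with Crlf2-/- replicate 3 only just under WT replicate 1. The SD was 28.2 FPKM around a mean of 202 in WT (n = 3), and 25.5 around 138 in Crlf2-/- mice (n = 3). On the log scale this was 68.2% of the WT level, with a log2 fold change of -0.55 (SE 0.17). H2-Aa had the smallest p of the 10 genes (unadjusted p = 0.0110 and adjusted p = 0.486 from limma, by the Benjamini-Hochberg method), and the exact permutation test gave p = 0.1, the smallest that 3 against 3 allows. Its adjusted p was 0.352 with voom and 0.0950 with the negative binomial test. The study, from its own test at the same thresholds, names H2-Aa among its downregulated genes.

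H2-Ab1 (chromosome 17, 34263209 to 34269418, plus strand) encodes the I-A beta chain, the partner of H2-Aa. It was at 123, 160 and 151 FPKM in WT and at 86.5, 99.8 and 141 FPKM in Crlf2-/- mice. The groups overlapped because Crlf2-/- replicate 3 lay above WT replicate 1. The log2 fold change was -0.42 (SE 0.19, adjusted p = 0.792 from limma, exact permutation p = 0.2).

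H2-Eb1 (chromosome 17, 34305877 to 34316199, plus strand) encodes the beta chain of I-E. It was at 211, 274 and 260 FPKM in WT and at 150, 163 and 215 FPKM in Crlf2-/- mice, with only Crlf2-/- replicate 3 reaching into the WT range. The log2 fold change was -0.50 (SE 0.17, adjusted p = 0.563 from limma, exact permutation p = 0.2). C57BL/6 mice are known to make no I-E alpha chain, and the table's alpha chain entry, H2-Ea-ps, was listed at 0 in all 6 libraries. H2-Eb1 RNA was thus plentiful where its partner's was not seen. H2-Eb2, a second I-E beta gene, was at 0.291 to 0.898 FPKM over the 6 libraries, with a log2 fold change of -0.05.

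Cd74 (chromosome 18, 60803848 to 60812646, plus strand), the invariant chain, was the most abundant of the 10. It was at 484, 635 and 670 FPKM in WT and at 385, 394 and 508 FPKM in Crlf2-/- mice. Here too only Crlf2-/- replicate 3 lay above a WT library. The log2 fold change was -0.47 (SE 0.17, adjusted p = 0.646 from limma, exact permutation p = 0.2).

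The DM genes encode the peptide exchange factor and were expressed far below the chains. H2-DMa (chromosome 17, 34135182 to 34139101, plus strand), the DM alpha chain, was at 15.3, 17.0 and 14.5 FPKM in WT and at 13.0, 12.1 and 12.2 FPKM in Crlf2-/- mice. The groups did not overlap, and Crlf2-/- replicate 3, the highest of its group for the chains, was here in the middle of its group. The log2 fold change was -0.32 (SE 0.10, adjusted p = 0.518 from limma, exact permutation p = 0.1). In GENCODE M21, H2-DMa shares 360 exonic bases (10.4% of its exon bases) with Brd2 on the opposite strand. As listed here, H2-DMa starts at 34135182 and Brd2 ends at 34122634, so these entries do not overlap.

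H2-DMb1 (chromosome 17, 34153072 to 34160230, plus strand), a DM beta chain, was at 15.6, 16.2 and 16.2 FPKM in WT and at 12.3, 13.7 and 14.8 FPKM in Crlf2-/- mice. The groups did not overlap, with a log2 fold change of -0.23 (SE 0.10, adjusted p = 0.765 from limma, exact permutation p = 0.1). H2-DMb2 (chromosome 17, 34143307 to 34151553, plus strand), the other DM beta chain, was at 1.80, 2.56 and 2.51 FPKM in WT and at 1.87, 1.60 and 2.65 FPKM in Crlf2-/- mice. Its groups overlapped widely, the highest library of the 6 being Crlf2-/- replicate 3, and the log2 fold change was -0.17 (SE 0.22). The pair of beta chain genes had 369 windows of 50 bases in common, which is 22.7% of those of H2-DMb1 and 21.2% of those of H2-DMb2, so the split of fragments between them is uncertain. No other pair of the genes described here shared a window.

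The O genes encode the DM inhibitor, known from B cells and some dendritic cells, and were scarce. H2-Oa (chromosome 17, 34092340 to 34095234, plus strand), the alpha chain, was at 0.992, 1.69 and 1.39 FPKM in WT and at 1.44, 0.913 and 1.15 FPKM in Crlf2-/- mice. H2-Ob (chromosome 17, 34238903 to 34245907, plus strand), the beta chain, was at 0.937, 1.48 and 1.71 FPKM in WT and at 1.37, 0.639 and 1.44 FPKM in Crlf2-/- mice. For both genes the groups overlapped, with WT replicate 1 and Crlf2-/- replicate 2 as the lowest libraries. The log2 fold change was -0.19 for H2-Oa (SE 0.24, adjusted p = 0.989 from limma) and -0.27 for H2-Ob (SE 0.33, adjusted p = 0.988). H2-Oa was read from 28 to 48 fragments per library, so counting error alone is large, and its sequence overlaps an antisense entry, BC051537, listed at 0.

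Ciita (chromosome 16, 10480059 to 10528418, plus strand), the transactivator, was at 1.23, 2.04 and 2.65 FPKM in WT and at 1.57, 0.845 and 2.36 FPKM in Crlf2-/- mice. The spread within each group was wider than the distance between them, and Crlf2-/- replicate 3 was the second highest of the 6 libraries. The log2 fold change was -0.33 (SE 0.38, adjusted p = 0.988 from limma, exact permutation p = 0.6). The estimates of Ciita and H2-Ob rested on Crlf2-/- replicate 2, since without it they were 0.04 and 0.08. Without the same library the estimates of H2-DMb2 and H2-Oa were -0.01 and -0.03. Ciita is known to use separate promoters in dendritic cells, in B cells and after interferon gamma, which a value over the whole gene does not separate. Ciita also shares 329 exonic bases (3.45% of its exon bases) with Dexi on the opposite strand, at 3.93 to 5.23 FPKM, where reads cannot be told apart without strand.

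**Figure D2:**
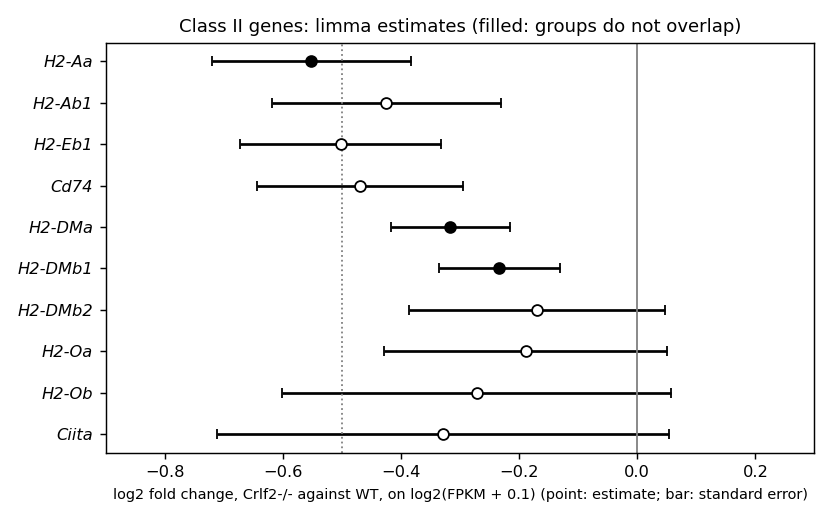
Log2 fold change of Crlf2-/- against WT (points) with its standard error (bars) for each class II gene, from limma on log2(FPKM + 0.1), with the dotted line at -0.5. All 10 points lie left of 0, from -0.55 to -0.17, and the standard errors of H2-DMb2, H2-Oa, H2-Ob and Ciita cross 0.

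Per length, the levels kept the order Cd74, H2-Eb1, H2-Aa, H2-Ab1 in each of the 6 libraries. Over the WT libraries the ranges of H2-Eb1 and H2-Aa overlapped, as did those of H2-DMb1 and H2-DMa. The range of Ciita overlapped those of H2-DMb2, H2-Ob and H2-Oa, while H2-DMb2 lay above H2-Ob and H2-Oa in each WT library. Log2 ratios within a library compare the proportions of the parts. The ratio of H2-Ab1 to H2-Aa, the chains of I-A, was -0.48 ± 0.09 (SD, n = 3) in WT and -0.35 ± 0.18 (SD, n = 3) in Crlf2-/- mice. That of Cd74 to H2-Ab1, chaperone to chain, was 2.04 ± 0.10 and 1.99 ± 0.15. That of H2-DMa to H2-Ab1, exchange factor to chain, was -3.20 ± 0.18 and -3.09 ± 0.40, and that of H2-Oa to H2-DMa, inhibitor to exchange factor, was -3.46 ± 0.31 and -3.33 ± 0.25. In all 4 ratios the groups overlapped (two-sided exact permutation p = 0.3, 0.8, 0.8 and 0.7), and the differences of 0.13, -0.05, 0.11 and 0.13 were smaller than the larger SD of each pair. A difference in proportion was not detectable with 3 mice per group.

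The 3 chains and Cd74 had similar profiles from mouse to mouse. Profiles were compared as the root mean square difference of log2 values over the 6 libraries, after each gene was centred on its mean. It was 0.07 between H2-Eb1 and Cd74, between H2-Aa and Cd74, and between H2-Ab1 and H2-Eb1, 0.09 between H2-Aa and H2-Eb1, 0.11 between H2-Ab1 and Cd74, and 0.13 between the I-A chains H2-Aa and H2-Ab1. H2-DMa and H2-DMb1 were likewise 0.13 apart, H2-Ob and Ciita were 0.17 apart, and H2-DMa and Ciita, the farthest pair, were 0.51 apart. The mean profile of H2-Aa, H2-Ab1, H2-Eb1 and Cd74 stood at 0.01, 0.35 and 0.37 in WT and at -0.43, -0.38 and 0.07 in Crlf2-/- mice. WT replicate 1 and Crlf2-/- replicate 3 thus sat side by side in the middle, with a difference between group means of -0.49. Among 12119 other genes at 1 FPKM or more, the nearest to this profile were Slc16a1 (0.06), a lactate transporter, Arhgef15 (0.07), Ppp1r16b (0.08), Cxcr3 (0.08), a chemokine receptor of T cells, and Hadhb (0.08), an enzyme of fatty acid oxidation. These are descriptions over 6 libraries that share depth and tissue, with no test.

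**Figure D3:**
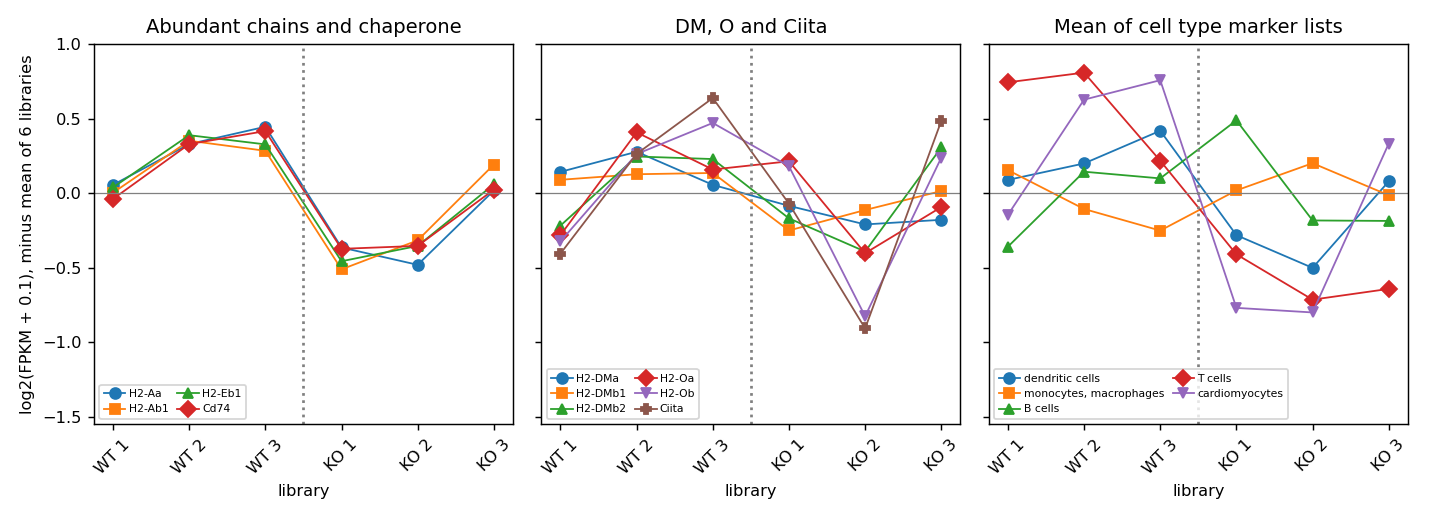
Log2(FPKM + 0.1) minus its mean over the 6 libraries for the chains and Cd74 (left), the other class II genes (middle) and the mean of 5 cell type marker lists (right); lines join values of one gene or list and the order of replicates has no meaning. The left curves run together, with WT replicates 2 and 3 high, Crlf2-/- replicates 1 and 2 low and the other two near 0.

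Dendritic cell markers had a median estimate of -0.31, which was -0.18 without WT replicate 3 and -0.48 without WT replicate 1. Of 10 markers, 4 were lower at an unadjusted p under 0.05 (3.36% of all genes were lower), and none was higher. They were Ccl22 (-1.54), Cd209a (-0.99), Ccr7 (-0.76) and Zbtb46 (-0.42). The rest were Flt3 (-0.44), Itgax (-0.20), Clec9a (-0.18), Batf3 (-0.09), Xcr1 (-0.08) and Siglech (0.001), each with overlapping groups. Ccl22 and Ccr7 mark mature, migrating dendritic cells, Cd209a marks monocyte-derived ones and Zbtb46 is a factor of the conventional lineage. None passed both thresholds in limma, where Ccl22 had an adjusted p of 0.181, while the negative binomial test called Ccl22 alone (adjusted p = 0.004). Their FPKM summed to 17.8 to 23.0 in WT and to 11.5 to 17.6 in Crlf2-/- mice, and none was at 0 in every library. The mean of the chains and Cd74 stood above the mean of the dendritic cell list by 7.27, 7.50 and 7.29 log2 units in WT and by 7.20, 7.47 and 7.34 in Crlf2-/- mice, a difference of -0.02 with overlapping groups. The list mean used here differed by -0.47 between groups, further from 0 than the median. It includes Ccl22, read from 11 to 66 fragments per library. How far the -0.02 depends on single markers or libraries was not tested. The part of dendritic cell number in the class II values was not tested either.

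The macrophage and B cell lists stood otherwise. Of 13 monocyte and macrophage markers, none was lower and 2 were higher at an unadjusted p under 0.05 (3.22% of all genes were higher), Fcgr1 (0.58), an Fc receptor, and Ly6c2 (0.57), a marker of inflammatory monocytes, with a median of 0.12 (-0.02 without WT replicate 3). The chains and Cd74 stood above this list by 1.88 on average in WT and by 1.26 in Crlf2-/- mice, a difference of -0.62 with overlapping groups. Of 10 B cell markers none reached an unadjusted p under 0.05 (median 0.09, but -0.12 without WT replicate 1 and -0.12 without Crlf2-/- replicate 1), and the most abundant, Cd79b, a chain of the B cell receptor, had an estimate of -0.18. B cell markers summed to 8.23 to 10.9 FPKM in WT and to 8.11 to 12.8 FPKM in Crlf2-/- mice.

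Markers of other tissue components also differed between libraries. Over all genes tested, 3.36% were lower at an unadjusted p under 0.05 in limma, and 50.9% had negative estimates. All 10 cardiomyocyte markers had negative estimates (median -0.72), 4 at an unadjusted p under 0.05, namely Myl2 (-1.35), Myl3 (-1.51), Tnni3 (-1.34) and Pln (-0.75), genes of the sarcomere and of calcium handling. Their sum was 1019, 1951 and 1748 FPKM in WT and 794, 674 and 1325 FPKM in Crlf2-/- mice, with WT replicate 1 and Crlf2-/- replicate 3 again in the middle and Crlf2-/- replicates 1 and 2 lowest. All 11 T cell markers were lower at an unadjusted p under 0.05 (median -1.18), among them Trbc2 (-1.56), Cd3g (-1.48), Cd247 (-1.44) and Cd8a (-1.62), summing to 23.6 to 34.8 FPKM in WT and to 12.8 to 15.8 FPKM in Crlf2-/- mice. All 5 red blood cell genes were lower (median -1.29), among them Hba-a1 (-1.32), Hba-a2 (-1.20), Hbb-bt (-1.34) and Alas2 (-0.96), summing to 226 to 370 FPKM in WT and to 84.9 to 161 FPKM in Crlf2-/- mice. Of 6 endothelial markers 5 had negative estimates (median -0.17). Only Tek (-0.32), the angiopoietin receptor, was lower at an unadjusted p under 0.05. No fibroblast marker of 7 reached an unadjusted p under 0.05 (Col1a1, 0.25), and their sums were 6326 to 7567 FPKM in WT and 7469 to 7607 FPKM in Crlf2-/- mice. Of the lymph node stroma list 2 of 5 genes were tested, both with negative estimates. Of these, Cxcl13 (-1.62), a B cell attractant, was lower at an unadjusted p under 0.05. Of the thymus list only Ccl25 (0.18) of 6 genes was tested. No gene of these lists passed both thresholds in limma, while the negative binomial test called 7 T cell and 5 red blood cell genes lower. The part of myocardial content or of blood in the class II values was not tested.

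The factors that act on class II promoters had estimates from -0.17 to 0.21. Of 7 genes for the X and Y box factors (the RFX subunits, Creb1 and the NF-Y subunits), none reached an unadjusted p under 0.05 in either direction, with a median of -0.08. The most abundant was Nfyc, a subunit of the Y box factor, with an estimate of 0.10. Ifngr1, a chain of the interferon gamma receptor, was at 67.2, 63.0 and 65.4 FPKM in WT and at 51.4, 53.0 and 50.4 FPKM in Crlf2-/- mice (log2 fold change -0.33, adjusted p = 0.457 from limma). Its groups did not overlap. Ifng itself was read from 1 to 9 fragments per library, too few to be tested.

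**Figure D4:**
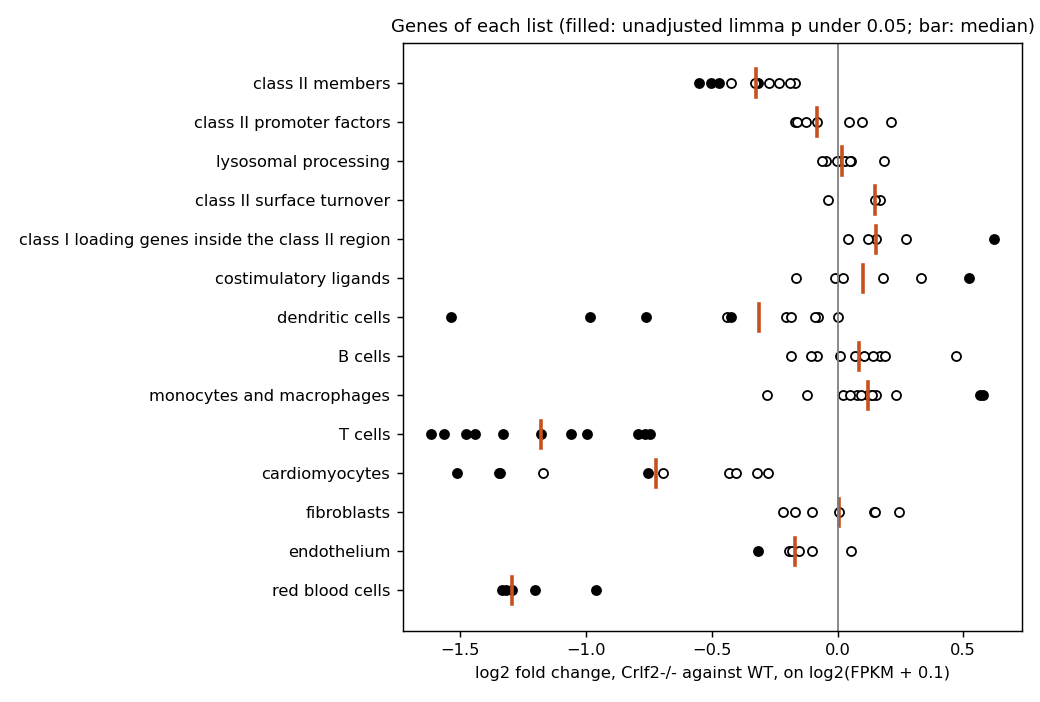
Log2 fold change of Crlf2-/- against WT for each tested gene (points, filled at an unadjusted limma p under 0.05) of the class II genes, their pathway lists and the cell type marker lists, with each list's median as an orange bar. The class II median of -0.32 lies beside that of the dendritic cell list at -0.31, and the macrophage (0.12) and B cell (0.09) medians lie right of 0 with all 6 libraries.

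Genes that act before or after loading seldom reached an unadjusted p under 0.05. Of 8 lysosomal processing genes none did (median 0.02, but -0.13 without WT replicate 3), and the most abundant, Ctsd, a lysosomal protease, had an estimate of -0.001. Of 3 genes for class II surface turnover none did (median 0.15, but -0.02 without WT replicate 1), and Cd83, which holds class II at the surface, had an estimate of 0.15. Of the genes that lie between the class II genes on chromosome 17 and serve class I loading or chromatin, 5 of 5 had positive estimates (median 0.15). Among them Tap1, the peptide transporter of the class I route, was at 10.3, 9.13 and 10.4 FPKM in WT and at 13.8, 15.2 and 17.1 FPKM in Crlf2-/- mice. Its groups did not overlap, with a log2 fold change of 0.62 (SE 0.12, adjusted p = 0.162 from limma, and adjusted p = 0.000732 with the negative binomial test). Of 6 costimulatory ligands tested 1 was higher at an unadjusted p under 0.05 (3.22% of all genes were higher), namely Cd40 (0.52). T cells engage Cd40 on antigen-presenting cells. Cd4, the T cell co-receptor for class II, had an estimate of 0.02.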

How the data were processed

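The authors trimmed the reads with FASTP, aligned them with HISAT2 2.0.5, used featureCounts for counts per gene, and deposited the values as FPKM. The labels list mm10 and hg38 as builds, the extraction protocol in them names another tissue than heart, and strandedness is not given in the sources used here. FPKM times gene length gave whole fragments (within 0.02) for 100% of nonzero values. These fragments set depth, trimmed mean of M values scaling and the filter (10 fragments in 3 libraries and 15 in all). limma 3.58.1 in R 4.3.3 (trended, robust eBayes) was fitted to log2(FPKM + 0.1) with Benjamini-Hochberg adjustment over 15520 genes. voom and a negative binomial Wald test written for this work used the fragments. A gene was called where adjusted p was 0.05 or less and the log2 fold change 0.5 or more in size. Exact permutation tests were two-sided over all 20 splits. limma, voom and the negative binomial test were checked on simulated fragments, and the permutation test was not. The planted changes were larger than any class II estimate, so this check does not cover changes of that size. The members and gene lists were chosen with earlier results of these data known, so no count here is independent support. Named genes were all members, Crlf2, H2-Ea-ps, Cd4, Ifng, the 5 nearest profiles and, per list, up to 4 genes by smallest unadjusted p under 0.05 or else the most abundant. The remaining dendritic cell markers and Ccl21a were named as well. Columns of other samples numbered 0. Replicates are separate mice. Python 3.11.15 was used for other steps. A result that needs a withheld item is not reported here.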

Additional observations from a re-analysis of the deposited data

How the results depend on the processing

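None of the 10 class II genes was called under any alternative run (other scalings, filters, pseudocounts and fold thresholds, voom, the negative binomial test, the replicate block and leaving out each library). The smallest adjusted p over these was 0.0950, for H2-Aa with the negative binomial test. The study's own test did call H2-Aa. Of 480 values recomputed, 24 changed sign, namely 2 estimates of class II genes, 4 ratio differences and 18 list medians. The count of all genes called, 2 (1 lower), was 6 (4 lower) with no filter, 1 (0 lower) with 10 fragments in every library, 185 (84 lower) with the negative binomial test, and 1 to 14 (0 to 10 lower) on leaving out 1 library each, with 14 without Crlf2-/- replicate 1 and 8 without WT replicate 3. voom called 3, 2 of them lower. Mice with the same number did not all deviate together (correlations over genes of -0.02, 0.12 and 0.12), and with the replicate block 4 genes were called (3 lower). The cause was not tested.

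On leaving out 1 library each, the class II count at an unadjusted p under 0.05 ran from 1 to 6, the class II median from -0.53 to -0.26, H2-Aa from -0.69 to -0.45, H2-Ob from -0.50 to 0.0756 and Ciita from -0.65 to 0.0445. The difference in the ratio of Cd74 to H2-Ab1 ran from -0.126 to 0.0275, that of H2-DMa to H2-Ab1 from -0.0779 to 0.320 and that of H2-Oa to H2-DMa from -0.0526 to 0.256. The median ran from -0.104 to 0.0529 for promoter factors, from -0.0202 to 0.211 for surface turnover, from -0.13 to 0.21 for lysosomal processing (-0.007 with the negative binomial test), from -0.12 to 0.20 for B cells, from -0.02 to 0.17 for macrophages, from -0.48 to -0.18 for dendritic cells and from -0.0290 to 0.0616 for fibroblasts. With a pseudocount of 1 the T cell median was -0.66. With 3 mice per group the exact test cannot go below p = 0.1, and H2-Oa, H2-Ob and Ciita rest on few fragments per kilobase.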
